A study of Rattus norvegicus with 68 samples.

Results

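The constitutive proteasome subunits are the genes of the proteasome that most cells express at all times. They were taken by symbol as Psma1 to Psma7, Psmb1 to Psmb7, Psmc1 to Psmc6 and Psmd1 to Psmd14, without the interferon-inducible subunits. Of these 34 genes, 33 had a probe set that carried their symbol alone, out of 14217 genes with such a probe set. The probe set with the highest mean stood for each gene. Psmb6, the catalytic subunit beta-1, was not assigned, because its probe set also carries the symbol Psmb6l1.

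RNA came from nasal epithelial cells of male F344/CrlBR rats that were 8 weeks old at the start and breathed formaldehyde, an irritant gas, by whole-body inhalation for 6 h a day on 5 days a week. The exposed groups were 0.7 and 2 ppm, 6 and 10 ppm, and 15 ppm, each at 5 d, 4 w and 13 w, with a 0 ppm group at 5 d and 13 w, all with 4 animals and 1 Affymetrix Rat230_2 array per animal. No group of 0 ppm at 4 w was analysed here, so 0.7 ppm, itself an exposure, was the reference at 4 w. Protease digestion released the lining of nasal level II, once the olfactory lining and the maxilloturbinate were discarded, and per the labels the cells were mainly of the transitional type. In the 0 ppm arrays of 5 d the mean log2 signal was 12.33 over 5 basal and squamous epithelial markers, 11.56 over 5 secretory markers and 11.52 over 3 olfactory markers. It was 12.19 over 2 red blood cell markers, 11.99 over 3 stroma markers and 10.70 over 3 ciliated markers. Over 9 leukocyte markers it was 7.49 and over 2 endothelial markers 7.09. The olfactory markers were thus not at background although that lining was discarded, and 0 of 3 were called at 15 ppm at any time. In 19 of the 20 samples of 4 w a treatment field gives 5 days, and the other labels give 4 weeks, which was used. Each array is 1 rat, and the 4 arrays of a group limit the precision. The titles of the 0 ppm samples carry other codes than those of the exposed samples, and no label says whether a code marks a batch. The code of the 0 ppm titles also differs between 5 d and 13 w. Any such batch cannot be told apart from dose in comparisons with 0 ppm, or from time between the 0 ppm groups. The latter also enters differences of responses against 0 ppm. Counts against 0.7 ppm, whose titles carry the code of the exposed samples, are also given at 5 d and 13 w. Single members are mostly given against 0 ppm only at these times.

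The proteasome degrades proteins that carry ubiquitin chains. Its core particle is a barrel of alpha and beta rings, and the beta ring holds the active sites. The regulatory particle that caps it consists of a base, with a ring of ATPases that unfolds substrates, and a lid that removes the ubiquitin chain. In many cells a block of proteasome activity is followed by a joint rise of the subunit genes through the transcription factor Nrf1, encoded by Nfe2l1, which binds antioxidant response elements. Formaldehyde forms adducts and crosslinks with proteins.

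At 15 ppm the constitutive proteasome genes were higher as a group at each time, and by small amounts. Of 33 members, 22 rose and 0 fell at 5 d, where 18.3% of all 14217 genes rose and 19.5% fell. At 4 w, 23 rose against 21.3% of all genes, and 1 fell against 16.1%. At 13 w, 23 rose against 23.5% of all genes, and 1 fell against 20.6%. A gene was called, that is rose or fell, at an adjusted p under 0.05 by limma with Benjamini-Hochberg adjustment over all genes. The median change of the members at 15 ppm was 0.23 at 5 d, 0.28 at 4 w and 0.31 at 13 w on the log2 scale, and that of all genes was -0.01, 0.01 and -0.02. The value of 4 w is against 0.7 ppm and the others are against 0 ppm. Against 0.7 ppm the members' median was 0.34 at 5 d and 0.35 at 13 w, so these medians do not show a growth with time. A total of 18 members (54.5%) rose at all 3 times, as did 1668 of all genes (11.7%). Only 2 members changed by 1.5-fold or more at 13 w, Psmd5 and Psmd11. Every member lay well within the measured range, with array values between 7.98 and 13.25 on the log2 scale, and among the 6430 genes with a mean at least that of the lowest member 21.1%, 26.3% and 30.9% rose at 5 d, 4 w and 13 w, a comparison added after seeing the data. In these bulk samples, fewer cells of a type and less RNA per cell cannot be told apart.

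**Figure D1:**
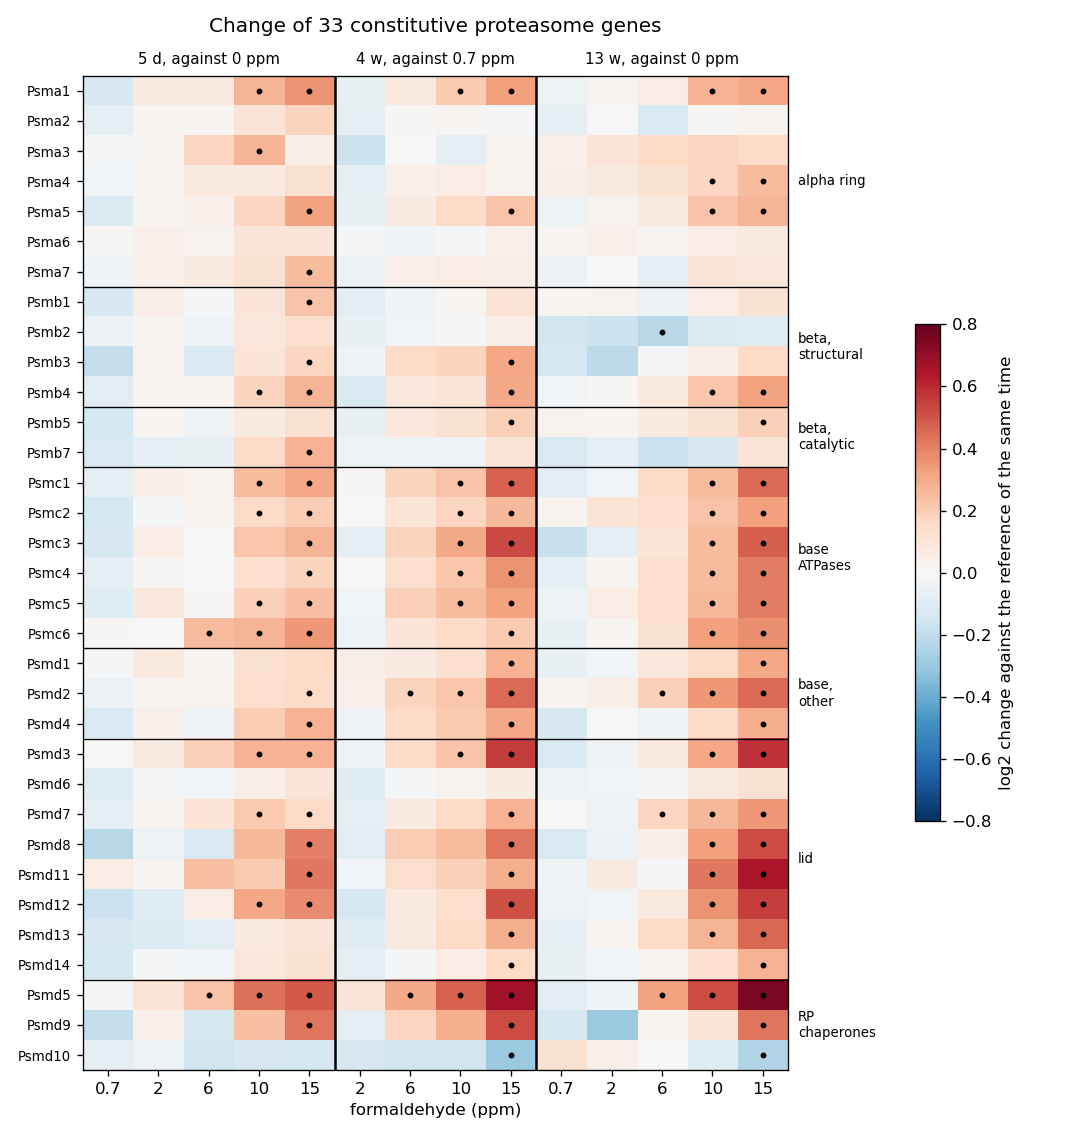
Log2 change of each of the 33 members (rows, grouped by role) against the reference of the same time, by formaldehyde dose in ppm (columns). Black dots mark changes with an adjusted p under 0.05 (limma, all genes): 22, 23 and 23 members rose at 15 ppm at 5 d, 4 w and 13 w, most of them in the regulatory particle rows. RP stands for regulatory particle.

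The rise followed the dose. At 10 ppm, 11 members rose at 5 d (9.75% of all genes), 9 at 4 w (9.03%) and 18 at 13 w (13.8%). None of these times had a member that fell at 10 ppm, where 5.79%, 5.75% and 12.5% of all genes fell. At 6 ppm, 2 members rose at 5 d (3.54% of all genes), 2 at 4 w (2.05%) and 3 at 13 w (7.54%), and 1 fell at 13 w (4.68%). Out of 33 members these counts are few, and those of 13 w are near the shares of all genes. The members' medians at 6 ppm were 0.02, 0.08 and 0.08 at the 3 times. At 2 ppm, limma called 0 members at 5 d (0.0281% of all genes in either direction), at 4 w (0.0211%) and at 13 w (0.00703%). At 0.7 ppm it also called 0 members, with 0% of all genes at 5 d and 0% at 13 w. Before adjustment 5 members had a p under 0.05 at 0.7 ppm at 5 d and 3 at 13 w, while at 2 ppm there were 0 at 5 d, 1 at 4 w and 4 at 13 w. Group means increased from 6 to 10 to 15 ppm in 28 members at 5 d, 28 at 4 w and 30 at 13 w, and in 27.4%, 33% and 28.4% of all genes. The 3 comparisons of a time share their reference arrays, so they are not independent of each other.

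The counts at 10 ppm at 5 d moved with single animals. Without animal 324 of 10 ppm the count was 17, while it was 7 without animal 328, 4 without animal 329, 7 without animal 330 and 5 without animal 210 of 0 ppm. At 6 ppm at 5 d the count was 0 without animal 204, 208 or 210 of 0 ppm or 298 or 300 of 6 ppm, and 1 without animal 299. At 6 ppm at 4 w it was 1 without animal 242 or 243 and 0 without animal 245 of 0.7 ppm or 310 of 6 ppm. At 6 ppm at 13 w it was 2 of 4 called without animal 225 of 0 ppm or 319 of 6 ppm. Against 0.7 ppm in place of 0 ppm, 24 members rose at 10 ppm at 5 d (14.5% of all genes) and 30 at 15 ppm (20.5%). Of all calls, 70.2% and 54.9% were then higher, against 62.7% and 48.4% with 0 ppm. At 13 w against 0.7 ppm, 6 members rose at 6 ppm (7.18% of all genes), 21 at 10 ppm (14.3%) and 26 at 15 ppm (24.3%). Against 0 ppm these counts were 3, 18 and 23. The members' median at 0.7 ppm against 0 ppm at 5 d was -0.09, with 30 of 33 members below 0.

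The promoters of 4 proteasome genes are printed to show the letters that were searched for: the core of the antioxidant response element (TGACNNNGC), the CCAAT box bound by NF-Y, and the core of the interferon-stimulated response element (GAAANNGAA). The table, from RefSeq with build GRCr8, holds the 250 bases before and 50 after a gene's start, and 29 of the 33 members were in it (not Psma7, Psmd6, Psmd12 and Psmd14). The sequences below run from 250 bases before the start up to it, 5′ to 3′ on the gene's strand, and capitals mark every match on either strand. Psmb5 lies on the minus strand at chr15:32047380-32047629, Psmd1 on the plus strand at chr9:94157721-94157970, Psmc3 on the plus strand at chr3:97487393-97487642 and Psmb10 on the minus strand at chr19:50743293-50743542.
Psmb5: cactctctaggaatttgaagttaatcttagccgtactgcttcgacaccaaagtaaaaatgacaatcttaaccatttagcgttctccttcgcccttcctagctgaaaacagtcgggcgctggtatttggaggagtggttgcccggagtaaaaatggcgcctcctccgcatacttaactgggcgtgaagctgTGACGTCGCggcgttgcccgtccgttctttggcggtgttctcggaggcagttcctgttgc
Psmd1: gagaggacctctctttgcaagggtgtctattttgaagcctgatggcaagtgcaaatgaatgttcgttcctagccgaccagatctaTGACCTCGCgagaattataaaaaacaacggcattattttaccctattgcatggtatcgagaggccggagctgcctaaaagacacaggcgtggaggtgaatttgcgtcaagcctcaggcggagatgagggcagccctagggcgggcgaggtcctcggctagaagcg
Psmc3: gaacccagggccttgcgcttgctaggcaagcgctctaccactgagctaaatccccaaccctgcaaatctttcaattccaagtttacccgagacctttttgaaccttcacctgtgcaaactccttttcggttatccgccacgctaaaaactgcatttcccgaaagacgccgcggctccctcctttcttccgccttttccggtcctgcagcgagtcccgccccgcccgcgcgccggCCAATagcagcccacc
Psmb10: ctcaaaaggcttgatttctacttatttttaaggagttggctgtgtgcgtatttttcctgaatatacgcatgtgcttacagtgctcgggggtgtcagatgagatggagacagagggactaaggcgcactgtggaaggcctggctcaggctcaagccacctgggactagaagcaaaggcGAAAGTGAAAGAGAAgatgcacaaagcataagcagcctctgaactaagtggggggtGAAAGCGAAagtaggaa

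Psmb5 has the antioxidant core 60 bases before its start and Psmd1 has it 165 bases before. Psmc3 has a CCAAT box 16 bases before its start. Psmb10, the inducible counterpart of Psmb7, has 3 interferon cores, at 73, 67 and 17 bases, and no antioxidant core in this window. Over 300 bases, 6 of 29 members (20.7%) hold the antioxidant core and 12.2% of the 27457 promoters in the table do. The members with it are Psma3, Psmb2, Psmb5, Psmd1, Psmd3 and Psmd9. A CCAAT box is present in 16 of 29 members (55.2%) and in 37.7% of all promoters. The interferon core is present in 5 of 29 members (17.2%), in 2 of the 3 inducible subunits (66.7%) and in 9.5% of all promoters. A match is a description of the letters, and binding was not measured.

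The core particle changed least. Of its 13 measured subunits, 7 rose at 15 ppm at 5 d, 5 at 4 w and 5 at 13 w, with medians of 0.18, 0.11 and 0.15. Of all genes, 18.3%, 21.3% and 23.5% rose at these times. The shares were larger among genes at the levels of the members, as given above. In the alpha ring, which gates the entry of substrates, Psma1 rose at all 3 times (0.36 ± 0.07 SE at 5 d, 0.33 ± 0.07 at 4 w and 0.31 ± 0.07 at 13 w, adjusted p = 4.0e-05, 1.6e-04 and 2.4e-04, limma). Psma5 rose at all 3 times too, by 0.32, 0.23 and 0.27. Psma7 rose at 5 d (0.25) with 0.05 and 0.09 later, and Psma4 rose at 13 w (0.25) after 0.12 and 0.03. Psma2, Psma3 and Psma6 were not called at 15 ppm at any time. Psma2 had changes of 0.18, -0.01 and 0.03 and its arrays overlapped those of the reference each time.

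Psma3 was the 1 member called between 10 and 15 ppm at 5 d, and it was lower at 15 ppm, where 8% of all genes fell. Its arrays were at 9.62, 9.81, 9.96 and 9.97 at 0 ppm, at 10.07, 10.08, 10.15 and 10.16 at 10 ppm, and at 9.85, 9.88, 9.91 and 9.92 at 15 ppm. The arrays of 10 ppm thus lay above those of both other doses, which overlapped. The change from 10 to 15 ppm was -0.22 ± 0.07 (SE, adjusted p = 0.0272), and it was not called without animal 324 or 330 of 10 ppm or without animal 354 or 359 of 15 ppm. Without animal 328 of 10 ppm the count of members called was 2. At 13 w the 15 ppm arrays of Psma3 spanned 9.92 to 10.11 and those of 0 ppm 9.73 to 9.94, a change of 0.15 (adjusted p = 0.088).

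In the beta ring, the structural subunit Psmb4 rose at all 3 times (0.27, 0.30 and 0.32 at 15 ppm, SE 0.06 each). Psmb3 rose at 5 d (0.17) and 4 w (0.31) and was at 0.16 at 13 w with an adjusted p of 0.051. Psmb1 rose at 5 d (0.23), with 0.11 and 0.12 later. Psmb2 was not called at 15 ppm and was the member that fell at 6 ppm at 13 w. Its arrays there were at 11.96, 12.06, 12.16 and 12.25, against 12.20, 12.32, 12.38 and 12.40 at 0 ppm, so that 1 array reached into the control range. The change was -0.22 ± 0.07 (SE, adjusted p = 0.0273). Against 0.7 ppm it was -0.07, and the call was also lost without animal 225 or 230 of 0 ppm or 319 or 320 of 6 ppm.

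Of the 2 catalytic subunits measured, Psmb7 rose at 15 ppm at 5 d, and Psmb5 rose at 4 w and 13 w. Psmb5, beta-5 with the chymotrypsin-like site, was at 12.51, 12.54, 12.60 and 12.80 at 0 ppm and 12.65, 12.70, 12.77 and 12.79 at 15 ppm at 5 d, which overlap (0.12 ± 0.05 SE, adjusted p = 0.0601). At 13 w its arrays were at 12.39, 12.39, 12.42 and 12.45 at 0 ppm and at 12.52, 12.59, 12.64 and 12.67 at 15 ppm, all of the latter higher. That rise of 0.19 ± 0.05 (adjusted p = 0.0015) matched the 0.19 at 4 w (adjusted p = 0.00261). The control level itself was lower at 13 w than at 5 d by -0.20 (adjusted p = 0.0231).

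Psmb7, beta-2 with the trypsin-like site, was at 10.37, 10.39, 10.48 and 10.55 at 0 ppm and at 10.63, 10.69, 10.79 and 10.81 at 15 ppm at 5 d, with no overlap (0.28 ± 0.06 SE, adjusted p = 3.3e-04). At 13 w it was at 10.47, 10.63, 10.63 and 10.64 at 0 ppm and at 10.54, 10.67, 10.76 and 10.79 at 15 ppm, which overlap (0.10, adjusted p = 0.239). At 10 ppm at 13 w it was at 10.35, 10.41, 10.53 and 10.57, and the step from 10 to 15 ppm was a rise of 0.22 (adjusted p = 0.0139). The difference of its responses at 13 w and 5 d was not called.

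The regulatory particle carried most of the rise. Of its 17 subunits, 13 rose at 15 ppm at 5 d, 16 at 4 w and 16 at 13 w, with medians of 0.24, 0.31 and 0.41. The shares of all genes that rose were 18.3%, 21.3% and 23.5%. All 6 base ATPases, Psmc1 to Psmc6, rose at 15 ppm at each time, Psmc6 at 5 d and 4 w by only 1 of its 3 probe sets. At 10 ppm, 4, 5 and 6 of the ATPases rose at 5 d, 4 w and 13 w. Their changes at 15 ppm ran from 0.18 to 0.35 at 5 d, from 0.21 to 0.53 at 4 w and from 0.33 to 0.48 at 13 w. Psmc3 was among the highest of them (0.27, 0.53 and 0.48 at 5 d, 4 w and 13 w, SE 0.08 each). The difference between the core and the regulatory particle was not tested, since the roles are groups of members and not of samples.

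**Figure D2:**
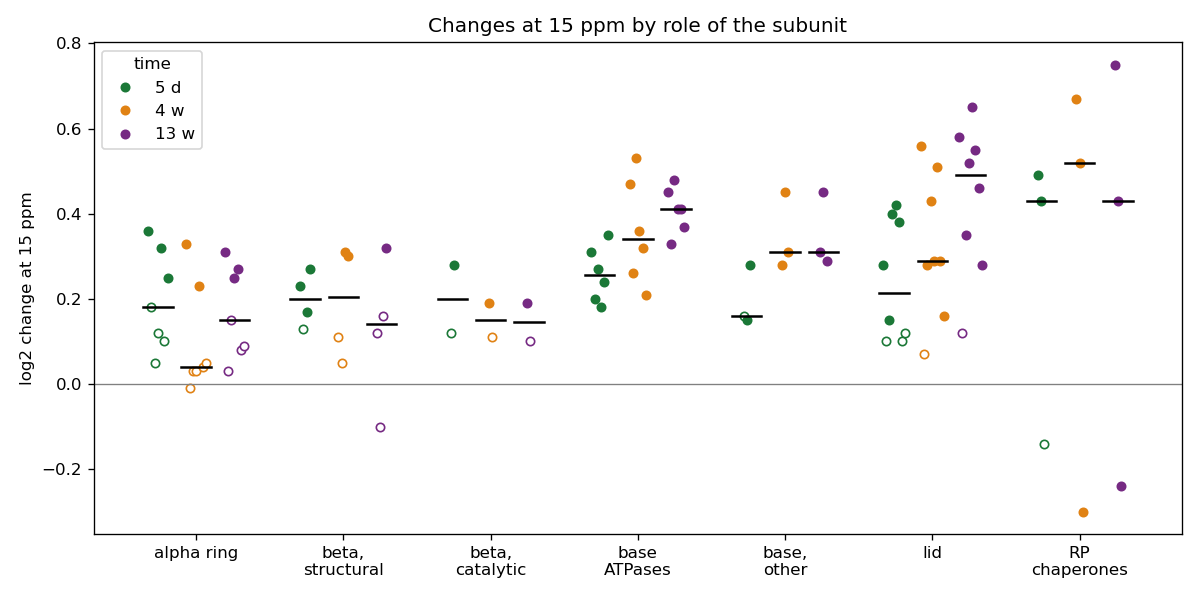
Log2 change at 15 ppm against the reference of the same time for each member (points) by the role of the subunit, with 1 colour per time. Filled points have an adjusted p under 0.05, open points do not, and black bars are medians: the 6 base ATPases are all filled at the 3 times, and 2 of 7 alpha ring genes are filled at 4 w.

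Psmc6 was the ATPase called at 6 ppm. At 5 d it was at 10.51, 10.54, 10.59 and 10.63 at 0 ppm, at 10.58, 10.88, 10.89 and 10.91 at 6 ppm and at 10.69, 10.83, 10.99 and 11.16 at 15 ppm. A single array of 6 ppm lay in the control range and the others above it (0.25 ± 0.08 SE, adjusted p = 0.0346). At 15 ppm all arrays lay above the controls (0.35, adjusted p = 2.5e-04). Psmc6 has 3 probe sets, and those of the chosen one were 0.35, 0.21 and 0.37 at 5 d, 4 w and 13 w. The others had changes of 0.17 and -0.10 at 5 d, -0.02 and 0.03 at 4 w, and 0.30 and 0.34 at 13 w. They were called at 13 w but not at 5 d or 4 w, so that the rise at 5 d and 4 w rests on 1 probe set.

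The base scaffold Psmd2, which docks shuttle proteins that deliver substrates, rose more at 13 w than at 5 d. At 0 ppm its arrays were at 11.19, 11.23, 11.30 and 11.33 at 5 d and at 10.95, 11.01, 11.11 and 11.15 at 13 w, so the control level was lower at 13 w by -0.21 ± 0.05 (SE, adjusted p = 0.0146). At 15 ppm they were at 11.40, 11.42, 11.42 and 11.42 at 5 d and at 11.45, 11.49, 11.52 and 11.57 at 13 w. The levels at 15 ppm were thus near each other and the controls were apart. The change was 0.15 ± 0.05 at 5 d (adjusted p = 0.0157) and 0.45 ± 0.05 at 13 w (adjusted p = 7.7e-11). At 4 w the arrays went from 11.05, 11.09, 11.11 and 11.22 at 0.7 ppm to 11.49, 11.50, 11.57 and 11.69 at 15 ppm (0.45, adjusted p = 3.0e-10). Psmd2 already rose at 6 ppm at 4 w (0.18, adjusted p = 0.0357) and at 13 w, where the arrays at 11.21, 11.23, 11.24 and 11.30 all exceeded the controls (0.19, adjusted p = 0.00637).

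Of the other base subunits, the scaffold Psmd1 had 0.16 at 5 d (adjusted p = 0.0513) and rose by 0.28 at 4 w and 0.31 at 13 w. The ubiquitin receptor Psmd4 rose by 0.28, 0.31 and 0.29 at the 3 times.

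In the lid, 5 of 8 subunits rose at 15 ppm at 5 d (18.3% of all genes), and 7 of 8 at 4 w (21.3%) and at 13 w (23.5%). Psmd11, which clamps the lid to the core particle, had the second largest member change at 13 w. At 5 d it was at 11.09, 11.23, 11.31 and 11.34 at 0 ppm and at 11.56, 11.60, 11.70 and 11.82 at 15 ppm. At 13 w it was at 11.25, 11.27, 11.27 and 11.43 at 0 ppm and at 11.86, 11.87, 12.00 and 12.11 at 15 ppm. The groups did not overlap at either time (0.42 ± 0.09 SE at 5 d, adjusted p = 1.9e-04, and 0.65 ± 0.09 at 13 w, adjusted p = 4.1e-08, which is 57.4% higher). A second probe set of Psmd11 at a like level had 0.10 (adjusted p = 0.227) at 5 d, 0.34 at 4 w and 0.50 at 13 w, so that the rise at 5 d rests on 1 probe set.

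Psmd3, a lid scaffold, was at 9.82, 9.95, 9.95 and 10.03 at 0 ppm and at 10.02, 10.20, 10.31 and 10.34 at 15 ppm at 5 d, with 1 array in the control range (0.28 ± 0.07 SE, adjusted p = 0.00132). At 13 w it was at 9.79, 9.99, 10.00 and 10.01 at 0 ppm and at 10.42, 10.47, 10.59 and 10.65 at 15 ppm, with no overlap (0.58 ± 0.07, adjusted p = 1.6e-09). Psmd13, another lid subunit, was at 10.11, 10.18, 10.26 and 10.33 at 0 ppm and at 10.11, 10.33, 10.37 and 10.47 at 15 ppm at 5 d, which overlap (0.10, adjusted p = 0.252). The values at 13 w were 9.90, 10.03, 10.04 and 10.10 at 0 ppm and 10.39, 10.44, 10.47 and 10.62 at 15 ppm, with no overlap (0.46 ± 0.07, adjusted p = 9.8e-08).

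Psmd7, the partner of the deubiquitinase, rose at 6 ppm at 13 w, where its arrays were at 10.97, 11.04, 11.04 and 11.15 against 10.78, 10.87, 10.93 and 10.95 at 0 ppm. All 4 exceeded the controls (0.17 ± 0.06 SE, adjusted p = 0.0489). At 15 ppm Psmd7 rose by 0.15 at 5 d, 0.28 at 4 w and 0.35 at 13 w. Psmd14, the deubiquitinase itself, was at 0.12 at 5 d (adjusted p = 0.118) and rose by 0.16 at 4 w and 0.28 at 13 w. It has 3 probe sets, and the others had 0.19 and 0.20 at 4 w, neither called. The call at 4 w thus rests on 1 probe set. At 13 w the others had 0.25, not called, and 0.40, called. Psmd8 and Psmd12 rose at each time, by 0.40 and 0.38 at 5 d, 0.43 and 0.51 at 4 w, and 0.52 and 0.55 at 13 w. Psmd6 was the lid subunit that was not called at any time (0.10, 0.07 and 0.12 at 15 ppm).

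The 3 members that encode chaperones of base assembly did not move alike. These proteins hold the ATPases before the base joins the core particle and are absent from the finished proteasome. Psmd5 had the largest change of all members at 15 ppm at each time. Its arrays at 5 d were at 10.09, 10.17, 10.17 and 10.27 at 0 ppm, at 10.31, 10.33, 10.48 and 10.50 at 6 ppm, at 10.41, 10.59, 10.71 and 10.73 at 10 ppm and at 10.55, 10.63, 10.67 and 10.79 at 15 ppm. At 13 w they were at 10.10, 10.11, 10.20 and 10.25 at 0 ppm, at 10.33, 10.38, 10.62 and 10.63 at 6 ppm, at 10.59, 10.67, 10.72 and 10.74 at 10 ppm and at 10.80, 10.93, 10.95 and 10.99 at 15 ppm. Every array of 6, 10 and 15 ppm exceeded all controls of its time. The changes at 6, 10 and 15 ppm were 0.23, 0.44 and 0.49 at 5 d, and 0.32, 0.52 and 0.75 at 13 w (SE 0.08 each). All were called, with adjusted p from 0.0468 at 6 ppm at 5 d to 7.6e-12 at 15 ppm at 13 w. At 4 w the arrays went from 9.98, 10.09, 10.15 and 10.18 at 0.7 ppm to 10.59, 10.70, 10.82 and 10.97 at 15 ppm (0.67, adjusted p = 5.2e-10). The level at 15 ppm was 40.3% higher at 5 d and 68.3% higher at 13 w than at 0 ppm. It was 58.9% higher at 4 w than at 0.7 ppm.

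**Figure D3:**
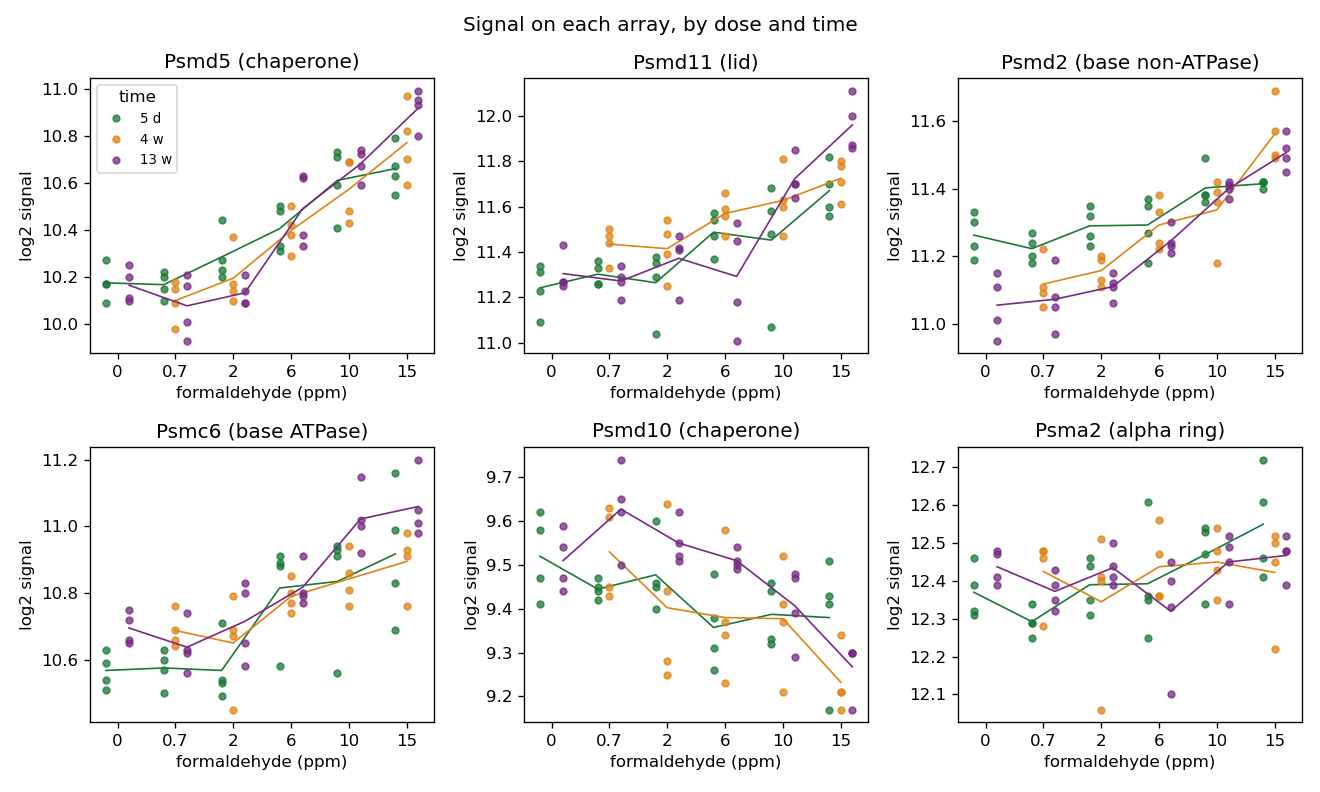
Log2 signal of 6 members on each array (points) against formaldehyde dose in ppm, drawn as equally spaced steps, with 1 colour per time and lines through the group means. Psmd5, Psmd11, Psmd2 and Psmc6 are higher at 15 ppm than at 0 or 0.7 ppm at each time, Psmd10 is lower at 15 ppm at 4 w and 13 w, and Psma2 has no called change at 15 ppm; the control points of Psmd2 lie lower at 13 w than at 5 d.

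Psmd9 was at 8.30, 8.41, 8.53 and 8.70 at 0 ppm and at 8.70, 8.91, 8.92 and 9.13 at 15 ppm at 5 d, where the groups met at their edge (0.43 ± 0.11 SE, adjusted p = 8.4e-04). The values at 13 w were 8.36, 8.38, 8.52 and 8.56 at 0 ppm and 8.72, 8.92, 8.93 and 8.97 at 15 ppm, with no overlap (0.43, adjusted p = 6.1e-04). A second, dimmer probe set of Psmd9 had smaller changes of 0.09 at 5 d, 0.06 at 4 w and 0.19 at 13 w.

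Psmd10, known as gankyrin, was the 1 member that fell at 15 ppm against the reference. At 13 w it was at 9.44, 9.47, 9.54 and 9.59 at 0 ppm and at 9.17, 9.30, 9.30 and 9.30 at 15 ppm, and at 4 w at 9.43, 9.45, 9.61 and 9.63 at 0.7 ppm and at 9.17, 9.21, 9.21 and 9.34 at 15 ppm. All exposed arrays lay below the reference at both times (-0.24 ± 0.07 SE, adjusted p = 0.00497 at 13 w, and -0.30 ± 0.07, adjusted p = 7.1e-04 at 4 w). At 5 d it was at 9.41, 9.47, 9.58 and 9.62 at 0 ppm and at 9.17, 9.41, 9.43 and 9.51 at 15 ppm, which overlap (-0.14, adjusted p = 0.116).

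From 10 to 15 ppm, 4 members rose at 4 w, where 5.11% of all genes rose: Psmc1 (0.24), Psmd2 (0.23), Psmd3 (0.33) and Psmd12 (0.38). At 13 w, 6 rose, where 8.55% of all genes rose: Psmb7, Psmc1 (0.20), Psmc3 (0.23), Psmd3 (0.27), Psmd5 (0.24) and Psmd9 (0.32). These counts were small and moved with single animals. At 13 w they fell to 1 without animal 341 or 348 of 10 ppm, and to 2, 0 and 1 without animals 377, 378 and 379 of 15 ppm. At 4 w they fell to 2 without animal 331 of 10 ppm or 368 of 15 ppm.

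The responses at 15 ppm differed between 13 w and 5 d in 3 members, all higher at 13 w, where 9.21% of all genes were higher. The difference of the responses was 0.31 ± 0.07 (SE) for Psmd2 (adjusted p = 0.00167), 0.30 ± 0.10 for Psmd3 (adjusted p = 0.0378) and 0.36 ± 0.10 for Psmd13 (adjusted p = 0.00626). A change of the controls enters these differences, and the title code of the controls differs between the 2 times. From 5 d to 13 w the 0 ppm level changed by -0.21 for Psmd2, 0.02 for Psmd3 and -0.20 for Psmd13. The last was not called (adjusted p = 0.103), though its arrays of 13 w all lay below those of 5 d. The count was 5 without animal 210 of 0 ppm at 5 d or without animal 356 of 15 ppm at 5 d. Against 0.7 ppm, the response of 4 w exceeded that of 5 d in 1 member, Psmd2 (0.25, adjusted p = 0.0349, 1.58% of all genes), and the call was lost without animal 242, 243 or 245 of 0.7 ppm at 4 w, 368 of 15 ppm at 4 w or 359 of 15 ppm at 5 d. Limma called 0 members for 13 w against 4 w at 15 ppm (0.0633% of all genes in either direction, 4 members with an unadjusted p under 0.05). For 13 w against 5 d it called 0 at 10 ppm (0.00703%, 4 members with an unadjusted p under 0.05) and 0 at 6 ppm (0%, 2 members). In the controls, 2 members were lower at 13 w than at 5 d, where 1.62% of all genes were, Psmb5 and Psmd2. That count was 0 without animal 225 or 230 of 13 w or 207 or 208 of 5 d, and 1 without animal 229 of 13 w.

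The inducible subunits Psmb8, Psmb9 and Psmb10, which replace beta-5, beta-1 and beta-2 in the immunoproteasome, followed another course. Psmb9 was at 10.52, 10.70, 10.77 and 10.86 at 0 ppm and at 11.28, 11.42, 11.48 and 11.91 at 15 ppm at 5 d, a rise of 0.81 ± 0.23 (SE, adjusted p = 0.00432). At 13 w it was at 10.43, 10.53, 10.88 and 11.14 at 0 ppm and at 10.09, 10.11, 10.27 and 10.27 at 15 ppm, a fall (-0.56, adjusted p = 0.0462). All exposed arrays lay above the controls at 5 d and below them at 13 w. Psmb8 was at 0.41 at 5 d (adjusted p = 0.171) and fell at 13 w (-0.59, adjusted p = 0.0316), and Psmb10 was at 0.33 and -0.33, neither called. The difference of the 2 responses was called for all 3 genes (-0.99, -1.37 and -0.67 for Psmb8, Psmb9 and Psmb10, adjusted p = 0.0275, 0.00222 and 0.0468).

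Within each array the signal of Psmb8 minus that of Psmb5 was taken, and that of Psmb10 minus Psmb7, as the shift between inducible and constitutive catalytic subunits. At 13 w Psmb8 minus Psmb5 was at -2.91, -2.75, -2.48 and -2.18 at 0 ppm and at -3.52, -3.41, -3.25 and -3.25 at 15 ppm. Psmb10 minus Psmb7 was at -0.92, -0.68, -0.67 and -0.64 at 0 ppm and at -1.29, -1.22, -1.09 and -1.02 at 15 ppm. The exposed arrays lay below all controls in both pairs. The differences between the groups were -0.78 and -0.43 (two-sided exact permutation p = 0.0286 each, the smallest that 4 against 4 arrays can give). At 5 d they were 0.29 (exact p = 0.143) and 0.05, the latter with an adjusted p of 0.877. Over the 18 comparisons of the pairs 0 had an adjusted p under 0.05 and 3 had an unadjusted exact p under 0.05. The third of these was Psmb8 minus Psmb5 at 6 ppm at 4 w (-0.44, exact p = 0.0286), where the differences at 10 and 15 ppm were -0.32 and -0.36 (exact p = 0.0571 each). At 6 ppm at 5 d it was also -0.44 (exact p = 0.0571). The lowest adjusted p was 0.171. No exact p can be under 0.0286, so an adjusted p under 0.05 would need most of the 18 comparisons at that value. The count of 0 therefore cannot decide whether the pairs shifted.

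**Figure D4:**
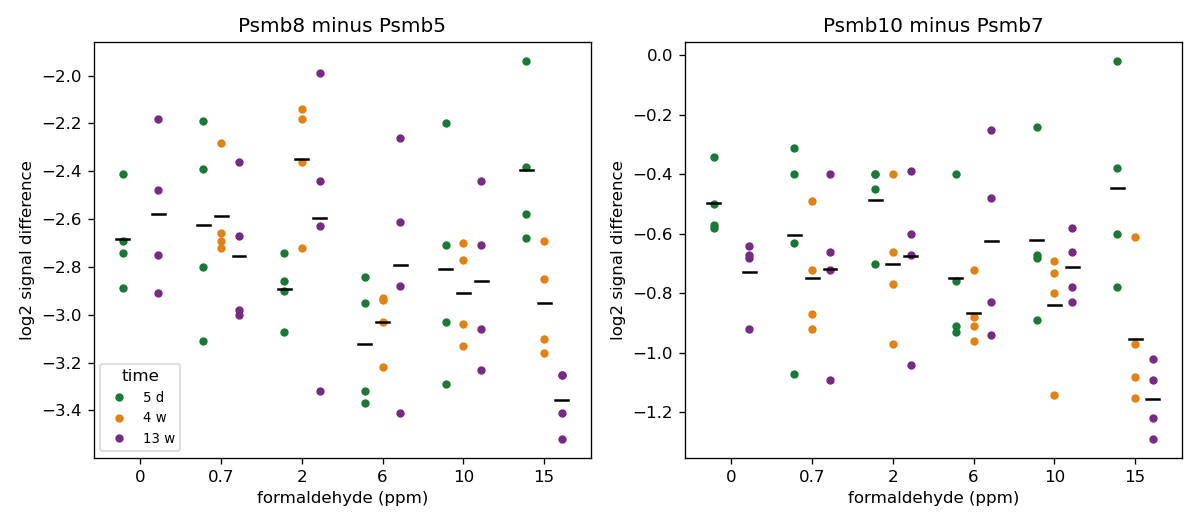
Difference of log2 signals between an inducible catalytic subunit and its constitutive counterpart within each array (points), by formaldehyde dose in ppm, with 1 colour per time and black bars for group means. At 15 ppm at 13 w the differences run from -3.52 to -3.25 for Psmb8 minus Psmb5 and from -1.29 to -1.02 for Psmb10 minus Psmb7, below the controls of that time; only changes of such a difference between groups can be read, not its size.

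Other genes of the pathway were taken from lists. At 15 ppm, 18.3%, 21.3% and 23.5% of all genes rose at 5 d, 4 w and 13 w, and 19.5%, 16.1% and 20.6% fell. The list counts here and in the next paragraph are to be read beside these shares, and are descriptions of short lists. Of the activator subunits and the inhibitor, Psme1 fell at 13 w at 15 ppm (-0.49, adjusted p = 3.9e-05) and so did the inhibitor Psmf1 (-0.37, adjusted p = 9.4e-05), with 2 of 4 measured genes fallen and 0 risen. Of the 5 assembly factors of the core, Psmg1 to Psmg4 and Pomp, 0 were called at 15 ppm at 5 d and at 4 w and 1 rose at 13 w (Psmg3, 0.17). Of the 5 measured partners of the regulatory particle, 3 rose at 5 d, 3 at 4 w and 4 at 13 w at 15 ppm. Among them were the ubiquitin hydrolases Usp14 (0.18, 0.37 and 0.46) and Uchl5 (0.48, 0.31 and 0.39) and the ubiquitin receptor Adrm1 (0.27, 0.35 and 0.24). Uba1, which activates ubiquitin, rose by 0.66, 0.49 and 0.57.

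Of 7 measured shuttle and p97 genes, 2 rose and 2 fell at 5 d, 4 rose and 0 fell at 4 w, and 4 rose and 1 fell at 13 w at 15 ppm. The shuttle Rad23b rose at each time (0.18, 0.34 and 0.40) and Ufd1, a cofactor of p97, fell at 5 d (-0.24) and 13 w (-0.27). Of 5 genes on a list of transcription regulators, 4 fell at 5 d, 4 fell and 1 rose at 4 w, and 2 fell and 1 rose at 13 w at 15 ppm. The 1 that rose is the gene with the symbol Nrf1 (-0.04 at 5 d, 0.24 at 4 w and 0.46 at 13 w), nuclear respiratory factor, which is not the proteasome factor encoded by Nfe2l1. Nfe2l1 fell at 5 d (-0.36, adjusted p = 3.0e-06) and 4 w (-0.24), and was at -0.10 at 13 w (adjusted p = 0.22). Ngly1, which removes sugars from the Nrf1 protein, fell at each time (-0.39, -0.41 and -0.35), as did Ddi2, the protease that cuts it (-0.41, -0.29 and -0.22). Of 8 Nrf2 target genes, 4 rose and 3 fell at 5 d, 5 rose at 4 w and 7 rose at 13 w at 15 ppm. Hmox1, heme oxygenase, rose by 2.02, 1.90 and 2.16. Of 4 interferon response genes, 4 rose at 5 d, 2 at 4 w and 1 at 13 w, where 1 also fell.

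The members varied together over the 17 group means. The median Pearson r over the 528 pairs of members was 0.79, and it was 0.90 among the regulatory particle subunits, 0.65 among the core subunits and 0.73 between the particles. After the group means were removed, the median r over the 68 arrays was 0.51, so that arrays of a group also deviated together. Psmd10 ran against the others, with a median r of -0.70. Over the 17 group means, the genes most like the average of the 27 members that rose at 15 ppm at 1 or more times were Tomm40 (r = 0.990), Ahcy (0.989), Smn1 (0.989), Ddx39a (0.985) and Umps (0.984). The choice of those members fixes that the most alike genes also rise with dose. Psmd10, also called at 15 ppm, was not averaged because it fell. These r values are descriptions over points that share arrays, doses and normalization.

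Other measures also differed between the groups. The RNA integrity number averaged 7.67 at 0 ppm and 8.32 at 15 ppm at 5 d, 8.20 at 0.7 ppm and 8.72 at 15 ppm at 4 w, and 7.57 and 8.90 at 0 and 15 ppm at 13 w, where 3 arrays of each had a value. With it as a covariate, 20, 21 and 18 members rose at 15 ppm at 5 d, 4 w and 13 w, where 17%, 20.3% and 18.2% of all genes rose, and the median change at 13 w was 0.25. At 10 ppm, 11, 12 and 11 members then rose (9.03%, 9.34% and 10.4% of all genes), against 11, 9 and 18 in the main fit. At 6 ppm the members' medians were 0.04, 0.08 and 0.01, against 0.02, 0.08 and 0.08. The 0.01 at 13 w equalled the median of all genes. The difference between 3′ and 5′ beta-actin signals averaged 1.71 at 0 ppm, 2.61 at 6 ppm, 2.05 at 10 ppm and 2.47 at 15 ppm at 5 d. At 4 w its group means lay between 1.75 and 1.86, and at 13 w they went from 1.58 at 0 ppm to 2.01 at 2 ppm and 1.71 at 15 ppm. With it as a covariate, a setting added after seeing the data, 25 members rose at 15 ppm at 5 d (20.9% of all genes) and 24 at 13 w (24.4%). Of 9 leukocyte markers, 7 rose at 15 ppm at 5 d, where their mean level on an array ran from 8.77 to 9.44 against 7.36 to 7.76 at 0 ppm, 5 rose and 1 fell at 4 w, and 0 rose and 3 fell at 13 w (7.14 to 7.57 against 7.26 to 7.93). Of 5 basal and squamous markers 2 rose and 2 fell at 5 d, 3 rose at 4 w and 5 rose at 13 w, where their mean level ran from 13.20 to 13.37 against 12.03 to 12.65. Of 3 measured ciliated markers 2, 1 and 3 fell at the 3 times, and the list ran from 9.26 to 9.99 at 15 ppm at 13 w against 10.19 to 10.74. Of 5 secretory markers 0, 1 and 2 fell, and of 3 stroma markers 0, 1 and 2 fell. The mean level of the stroma list at 13 w ran from 9.71 to 10.92 at 15 ppm against 11.74 to 12.20 at 0 ppm. The red blood cell list (11.21 to 11.86 against 11.46 to 12.54) and the endothelial list (5.94 to 6.94 against 6.33 to 7.05) overlapped there. The 3 olfactory markers differed widely between arrays of a group, with a mean level from 8.49 to 11.82 at 15 ppm and from 9.04 to 11.65 at 0 ppm at 13 w, and from 9.92 to 12.08 and from 11.02 to 12.09 at 5 d. The part of these cell types in the changes of the members was not tested.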

How the data were processed

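Per the labels, the authors hybridised RNA of nasal epithelial cells to 68 Affymetrix Rat230_2 arrays and deposited log2 signals made by RMA, which corrects background, scales arrays by quantiles and summarises probes. Scaling by quantiles removes any change common to all genes. Of 31099 probe sets, 20826 carry 1 gene symbol, 436 carry several, 9780 none and 57 are controls. The probe set with the highest mean stood for each of 14217 genes, with no filter on low signal. A limma fit (limma 3.58.1, R 4.3.3) used 17 group means over the 68 arrays, and p-values were adjusted by Benjamini-Hochberg over all genes within each comparison. The fit was tested on simulated data. Given on every array are the 2 members with the largest change at 15 ppm at 5 d and at 13 w, members called at 6 ppm or in a difference between times, the catalytic subunits and members called against the majority; the others are given by their changes. Pairs of catalytic subunits used exact permutation tests over arrays. Motifs were matched as letters on both strands. The members and all lists were chosen with earlier results of these data known. Alternatives are in the closing section.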

Additional observations from a re-analysis of the deposited data

Results flagged for a closer look

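Within 96 groups of 4 arrays over 16 genes, 5 groups had 1 array far from the others by Dixon's 95% criterion, and chance flags about 1 in 20 groups. At 0 ppm at 13 w, Psmb7 was at 10.47 on the array of animal 230, with the others at 10.63 to 10.64. There Psmd3 was at 9.79 on the array of animal 226, with the others at 9.99 to 10.01, and Psmd11 at 11.43 on that of animal 229, with the others at 11.25 to 11.27. Psmd10 was at 9.17 on the array of animal 379 at 15 ppm at 13 w, with the others at 9.30. Psmd13 was at 9.99 on the array of animal 250 at 0.7 ppm at 4 w, with the others at 10.09 to 10.11.

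The response to 15 ppm was larger at 13 w than at 5 d for Psmd2 by 0.31, for Psmd3 by 0.30 and for Psmd13 by 0.36, by a test of the difference of responses in limma. The controls themselves changed between these times by -0.21, 0.02 and -0.20, which enters the differences. Against 0.7 ppm, the response of Psmd2 was larger at 4 w than at 5 d by 0.25, where 1.58% of all genes were higher.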

How the results depend on the processing

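Counts below are members called in either direction. The counts at 15 ppm against the reference stayed within 1.5 times the values above under every setting tried, while smaller counts moved; the causes were not tested. With each array centred on its median, the count was 1 at 6 ppm at 5 d, 1 at 6 ppm and 5 at 10 ppm at 4 w, and 0 for 13 w against 5 d at 0 ppm. With cyclic loess it was 4 at 6 ppm at 5 d, 4 at 6 ppm and 17 at 10 ppm at 4 w, and 4 for 15 against 10 ppm at 5 d, and 59.5% of all calls at 15 ppm at 5 d were higher, against 48.4% with the deposited values. Restricted to genes with a highest group mean of 6 or more, 2 members differed between 4 w and 5 d at 15 ppm, and the mean of all probe sets gave 1 for 13 w against 5 d at 0 ppm. With array weights the counts were 6, 1 and 8 at 6 ppm at 5 d, 4 w and 13 w, 16 at 10 ppm at 4 w, 11 for 15 against 10 ppm at 13 w, 6 and 0 for the 15 ppm responses of 13 w and 4 w against 5 d, and 5 for the controls of 13 w against 5 d. With each time fitted alone they were 0 at 6 ppm at 5 d and 4 w, 4 at 10 ppm at 5 d and 2 for 15 against 10 ppm at 4 w. With the RNA integrity number as a covariate they were 1 at 6 ppm at 5 d, 0 for 15 against 10 ppm at 5 d and 3 at 13 w. Against 0.7 ppm they were 4 at 6 ppm and 24 at 10 ppm at 5 d. Adjusted over all comparisons together they were 1 at 2 ppm at 13 w, 1 for the 10 ppm response of 13 w against 5 d, 2 and 1 for the 15 ppm responses of 4 w against 5 d and of 13 w against 4 w, and 4 for the controls. In settings chosen after seeing the data, the beta-actin covariate gave 18 at 10 ppm and 7 for 15 against 10 ppm at 5 d, and 6 for the 15 ppm response of 4 w against 5 d, and leaving out arrays without an RNA integrity number gave 4 at 6 ppm and 0 for 15 against 10 ppm at 5 d.

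Leaving out 1 array at a time, the counts ranged at 5 d from 0 to 2 at 6 ppm, 4 to 17 at 10 ppm and 19 to 26 at 15 ppm; at 4 w from 0 to 2, 6 to 12 and 21 to 24; and at 13 w from 2 to 4, 16 to 19 and 24 to 25. For 15 against 10 ppm they ranged from 0 to 2 at 5 d, 2 to 6 at 4 w and 0 to 6 at 13 w. They ranged from 2 to 5 and 0 to 1 for the 15 ppm responses of 13 w and 4 w against 5 d, and from 0 to 2 for the controls. The 116 called member changes of the 9 comparisons of 6, 10 and 15 ppm with the reference were computed again. These repeats use the same arrays and are not separate changes. Of 1357 repeats under other settings, 71 lost the call and 0 reversed, and of 928 with an array left out, 98 lost it and 0 reversed. No paired analysis was possible because each animal number occurs once. Small changes, 4 arrays a group and quantile scaling limit what can be seen.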
